A study of Mus musculus with 2 samples.

Results

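The deposited gene table held 54751 rows, and 219 of them were gene models that carried no reference identifier and only a running number given by the authors' processing. These 219 unannotated models were taken by that identifier and are called here by their number (model 56, for example). Each was classed by the protein description the authors' table gives it. A retroelement protein (Pol, Gag, envelope or LINE-1) was named for 46 models, another protein for 19 and none for 154.

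The libraries came from MDSCs (myeloid-derived suppressor cells) that had been derived from mouse bone marrow; these are immature myeloid cells that can restrain T cells. Both cultures were wild type (WT) and were kept in medium with fetal bovine serum. The control culture received vehicle and the other mrWNT2, which the labels do not spell out further (WNT2 belongs to the secreted ligands of the WNT pathway). Both were treated on day 0 and day 3 and taken on day 6, and each group had 1 library, so no difference below has a replicate check and no test was possible.

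Retroelements are stretches of the genome that copy themselves through RNA. Endogenous retroviruses are remnants of ancient germline infections, with long terminal repeats around genes for Gag (the structural proteins), Pol (protease, reverse transcriptase and integrase) and Env (the surface glycoprotein). LINE-1 elements have no long terminal repeats and code for an RNA-binding protein (ORF1) and an endonuclease with reverse transcriptase (ORF2). Most copies in the mouse are kept silent by DNA methylation and by KRAB zinc finger proteins that recruit TRIM28 and H3K9 methyltransferases, and their transcripts can be sensed as viral nucleic acid in myeloid cells.

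Most models looked spliced, and their length was ordinary for the table, whose rows had a median of 1249 bases. The median length of the models was 1215 bases over all 219 and 3211 bases over the 46 retroelement models. Of the 219, 134 were shorter than the span they cover, as a spliced transcript is. Among the retroelement models, 23 were matched to Pol (including Gag-Pol and Pro-Pol), 8 to envelope proteins, 2 to Gag, 12 to LINE-1 ORF2 and 1 to LINE-1 ORF1. A domain label stood on 16 models, among them 3 with RnaseH, 3 with KRAB, 2 with Gag_p30 and 2 with zf-CCHC. In RefSeq's annotation of the same build (GRCm38.p6), 55 models overlapped a gene on the same strand, 42 of them long non-coding RNAs and 13 protein-coding genes, and 118 overlapped none. The later GENCODE M21 annotation placed a gene over 14 models, 9 of them on the same strand. Most of these 14 lay on chromosomes 18 and 19, which hold 11 and 17 of the 219 models. Whether the comparison covered all chromosomes alike was not checked, so the 14 may be an undercount.

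Where RefSeq places a gene start within 500 bases of a model's start on the same strand (35 models), the sequence around that start could be read. The 6 shown are RefSeq starts near an envelope model (81) and a LINE-1 model (17) that were higher in the mrWNT2 library, near a model with no protein match (204) that was higher together with its neighbour, near models 21 and 107, which were lower, and near model 126, which hardly differed. Each runs from 250 bases before to 50 bases after the RefSeq start, 5′ to 3′ in the direction of the gene, taken from RefSeq's GRCm38.p6 annotation. Capitals mark matches to the motifs searched on both strands.
D17H6S56E-5, RefSeq start near model 81 (minus strand of chr17:35000697-35000996): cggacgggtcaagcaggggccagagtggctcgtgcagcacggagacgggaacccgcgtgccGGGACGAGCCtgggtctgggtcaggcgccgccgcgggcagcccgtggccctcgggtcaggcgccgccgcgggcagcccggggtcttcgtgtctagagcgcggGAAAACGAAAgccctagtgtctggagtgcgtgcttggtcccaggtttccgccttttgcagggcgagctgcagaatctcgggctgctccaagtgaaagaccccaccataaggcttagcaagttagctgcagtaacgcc
Gm46162, RefSeq start near model 17 (minus strand of chr1:151250491-151250790): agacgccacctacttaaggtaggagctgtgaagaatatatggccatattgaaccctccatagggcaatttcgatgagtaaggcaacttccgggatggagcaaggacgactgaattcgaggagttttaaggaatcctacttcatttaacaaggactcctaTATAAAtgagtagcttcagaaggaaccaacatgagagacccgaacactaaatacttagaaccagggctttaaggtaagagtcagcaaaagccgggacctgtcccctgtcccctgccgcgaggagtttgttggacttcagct
D030055H07Rik, RefSeq start near model 204 (plus strand of chr9:106147721-106148020): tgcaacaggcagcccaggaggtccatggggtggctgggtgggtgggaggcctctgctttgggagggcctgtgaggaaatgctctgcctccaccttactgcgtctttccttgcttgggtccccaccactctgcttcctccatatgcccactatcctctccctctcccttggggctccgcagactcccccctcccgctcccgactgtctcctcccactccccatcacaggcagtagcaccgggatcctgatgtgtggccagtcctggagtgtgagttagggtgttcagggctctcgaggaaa
Gm39714, RefSeq start near model 21 (minus strand of chr1:180885809-180886108): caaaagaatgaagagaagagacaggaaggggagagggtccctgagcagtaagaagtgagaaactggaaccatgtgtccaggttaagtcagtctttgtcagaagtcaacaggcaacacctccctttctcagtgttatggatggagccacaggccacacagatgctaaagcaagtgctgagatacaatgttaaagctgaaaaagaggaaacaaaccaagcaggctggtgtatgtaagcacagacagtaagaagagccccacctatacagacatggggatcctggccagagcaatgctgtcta
9830166K06Rik, RefSeq start near model 107 (minus strand of chr19:8663286-8663585): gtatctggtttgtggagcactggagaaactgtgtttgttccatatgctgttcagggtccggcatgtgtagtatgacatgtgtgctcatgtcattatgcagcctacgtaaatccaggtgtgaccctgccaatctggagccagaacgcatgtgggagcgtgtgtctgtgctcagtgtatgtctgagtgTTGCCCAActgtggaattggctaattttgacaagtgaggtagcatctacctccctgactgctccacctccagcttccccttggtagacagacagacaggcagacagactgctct
Gm32287, RefSeq start near model 126 (minus strand of chr2:167776205-167776504): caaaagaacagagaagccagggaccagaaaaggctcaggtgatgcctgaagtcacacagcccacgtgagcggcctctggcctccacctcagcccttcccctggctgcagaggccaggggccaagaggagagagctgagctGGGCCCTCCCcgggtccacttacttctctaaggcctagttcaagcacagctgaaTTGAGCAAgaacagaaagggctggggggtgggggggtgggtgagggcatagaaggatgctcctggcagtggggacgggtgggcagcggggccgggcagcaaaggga

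The model's own start lay 393 bases downstream of the RefSeq start for model 81, 286 bases upstream for model 17, 179 upstream for model 204, 125 upstream for model 107, 19 downstream for model 126 and at the same base for model 21. The windows shown for models 81 and 17 therefore do not hold those models' own starts. The motifs searched were the TATA box (TATAAA), the AP-1 site (TGANTCA), the PU.1 site (GAGGAAGT), the NF-kB site (GGGANNNNCC), the interferon-stimulated response element, ISRE (GAAANNGAAA), and the C/EBP site (TTGCNNAA). The D17H6S56E-5 window held GGGACGAGCC (NF-kB letters) 189 bases before the start and GAAAACGAAA (ISRE letters) 87 bases before it. The Gm46162 window held TATAAA 91 bases before the RefSeq start, which is within the span of model 17, and that of 9830166K06Rik held the C/EBP letters TTGCCCAA 64 bases before it. The Gm32287 window held the NF-kB and C/EBP letters on the other strand, 110 and 56 bases before the start, and the windows of models 204 and 21 held none of the 6 motifs searched. No matches in these windows overlapped each other.

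Over the 35 windows the NF-kB letters occurred in 10 (28.6%), against 20.7% of all 32817 RefSeq promoters of the same length. The C/EBP letters occurred in 5 (14.3% against 10.8%), and TATA, AP-1 and ISRE letters in 2 each (5.71% against 13.6%, 7.81% and 3.43%). The PU.1 letters occurred in 1 (2.86% against 3.20%). The GC content had a median of 51.0% over the 35 windows and 52.7% over all promoters. These are matches of letters only, over few windows.

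Total counts were 13474453 in control and 12621110 in mrWNT2. The unannotated models took 29890 of the control counts and 32659 of the mrWNT2 counts. Values are given as raw counts. Each ratio of mrWNT2 over control was computed after TMM scaling, with an exact 95% Clopper-Pearson interval that covers counting error only. A model or gene was called measured where the mean of its 2 libraries reached 1 CPM (counts scaled to a library of equal size), which 157 of the 219 models did. A ratio past 2-fold in either direction was counted as a call. Of the other 62 models, 6 had no count in either library.

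Of the 157 measured models, 13 lay 2-fold or more higher in the mrWNT2 library and 26 lay 2-fold or more lower. Over all 12856 measured genes of the table, 3.38% were higher by that margin and 2.49% were lower. The share of models past 2-fold, 8.28% higher and 16.6% lower, was thus above this background, taken over all levels, in both directions. It was more so in the lower one. How the models were built was not given. If reads of these libraries built them, a model could enter through the one library where it was high. Annotated genes are listed whatever their counts, so the models' shares here and below are not fully comparable with theirs. The interval also excluded a ratio of 1 for all 13 higher and 25 of the 26 lower models (3.29% higher and 2.37% lower over all genes). With bulk RNA, fewer cells that make a transcript and less transcript per cell cannot be told apart.

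The models lay at low levels, where more genes pass 2-fold, so the background was also taken by level. Among the 114 models with a mean of 1 to 10 CPM, 9 were past 2-fold higher (7.89%) and 19 lower (16.7%). Over all genes of that level the shares were 6.52% higher and 6.01% lower. At that level the higher share of the models thus lay near that of all genes, and the lower share lay above it. Among the 43 models with at least 10 CPM, 4 were past 2-fold higher (9.30%) and 7 lower (16.3%). Of all genes of that level 1.8% were higher and 0.714% lower. Levels were not fully matched there, with a median of 21.1 CPM for the 43 models and 45.8 CPM for all genes of at least 10 CPM. The median log2 ratio was -0.32 for the 114 models, -0.41 for the 43 and 0.02 for all measured genes.

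**Figure D1:**
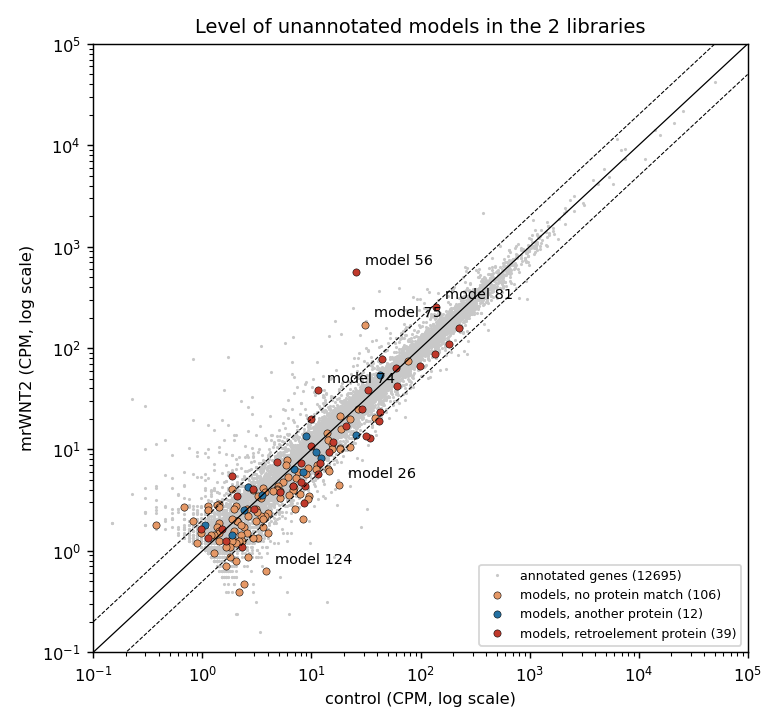
Level of each of the 157 measured models in the control (x) and mrWNT2 (y) libraries, in CPM on log axes, coloured by class, over annotated genes in grey with counts in both libraries. The solid line marks equal levels and the dashed lines 2-fold differences; model 56 lies far above the lines at 25.6 and 557 CPM, and most models lie on or under the solid line.

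The lower direction was shared by most models without being large. In all, 105 of the 157 measured models (66.9%) lay lower in the mrWNT2 library at any size, against 47.7% of all measured genes. The median log2 ratio was -0.34, with quartiles of -0.76 and 0.15. The retroelement models had a median of -0.39 (39 measured), the models with no protein match -0.39 (106 measured) and the models matched to another protein -0.04 (12 measured).

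Annotated non-coding genes of the same table had medians of a like sign. The median was -0.29 for 236 measured lincRNA genes, of which 70.3% lay lower, -0.25 for 186 antisense genes and -0.36 for 133 genes of the TEC class, whose transcripts await experimental evidence. Protein-coding genes had a median of 0.03 and processed pseudogenes, which are intronless copies of messenger RNAs, one of 0.07. Past 2-fold, 2.12% of lincRNA genes were higher and 5.93% lower, and 3.36% of protein-coding genes were higher and 1.9% lower. Of antisense genes 3.76% were higher and 9.68% lower, and of TEC genes 3.76% and 8.27%. The shares past 2-fold of the models were larger than those of the lincRNA, antisense and TEC genes in both directions. Their median lay close to that of the lincRNA genes. Levels were not matched between these classes in the values above. At a mean of at least 10 CPM, the 45 lincRNA genes had a median of -0.45, and 77.8% of them lay lower. The 43 models of that level had a median of -0.41, and 69.8% lay lower. Past 2-fold, 4.44% of those lincRNA genes were higher and 6.67% lower, against 9.30% and 16.3% of those models.

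**Figure D2:**
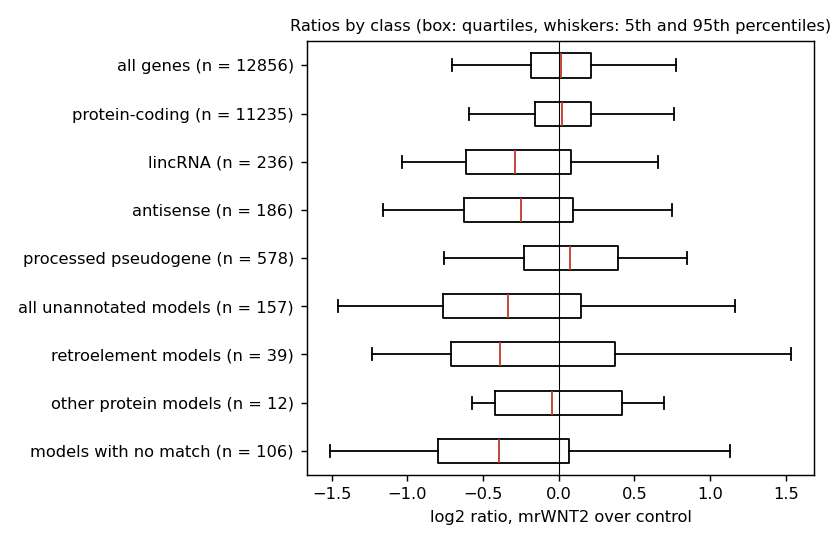
Log2 ratio of mrWNT2 over control for measured genes and models by class; boxes give the quartiles, red lines the medians and whiskers the 5th and 95th percentiles. The medians of the unannotated models (-0.34), the retroelement models (-0.39) and the lincRNA genes (-0.29) lie left of 0, and that of the protein-coding genes (0.03) lies at it.

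By class, the shares past 2-fold were alike for retroelement models (10.3% higher, 15.4% lower) and models with no protein match (8.49% and 18.9%). Of the 39 measured retroelement models, 4 passed 2-fold higher (models 56, 74, 201 and 17) and 6 passed 2-fold lower (models 150, 142, 177, 6, 165 and 8). Of the 106 measured models with no protein match, 9 were higher and 20 lower. None of the 12 measured models matched to another protein was past 2-fold in either direction, and at the all-gene shares of 3.38% and 2.49% fewer than 1 would be. By structure, 5 of the 104 measured spliced models were past 2-fold higher and 18 lower, and 8 of the 53 measured unspliced ones were higher and 8 lower. Just inside the 2-fold line lay models 8 (152 to 72 counts, 2.01-fold lower), 17 (132 to 253, 2.02-fold higher), 62 (19 to 37, 2.05-fold higher) and 36 (48 to 22, 2.07-fold lower). Just outside it lay models 130 (1.97-fold lower), 38 and 21 (both 1.88-fold, higher and lower) and 188 (1.86-fold lower).

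Taking retroviral Pol first, the largest difference of any model was that of model 56. It is a Pol polyprotein model of 4726 bases with no splice at chr13:55184447-55189172 (GRCm38, minus strand), between Nsd1 and the growth factor receptor gene Fgfr4. It held 343 counts in control and 7089 in mrWNT2. The mrWNT2 level was 21.7-fold higher, with a counting interval of 19.5 to 24.3. Per length, its deposited FPKM (fragments scaled by model length and sequencing depth) was 5.49 in control and 117 in mrWNT2. By ratio it ranked 15 among the 12856 measured genes, and by raw counts it moved from rank 5963 in control to rank 187 in mrWNT2.

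The genes on either side of model 56 did not share its difference. Fgfr4, 15688 bases away, had no count in either library. Nsd1, a histone methyltransferase gene 20610 bases away, held 2465 counts in control and 2274 in mrWNT2, a log2 ratio of -0.04. Model 51 covers the same span on the plus strand and was at 0 counts in both libraries. That value depends on how reads on a shared span were assigned, which was not given.

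Model 56 alone carried 1.89% of the counts in retroelement models in control and 32.2% in mrWNT2. Summed over the 46 retroelement models, counts went from 18171 to 22016, a log2 ratio of 0.35. Without model 56 they went from 17828 to 14927, and the log2 ratio turned to -0.18. The higher sum of the retroelement class in the mrWNT2 library thus rested on this model. The median of the class was -0.39 with model 56 and -0.40 without it. Leaving out 1 of 39 measured models can hardly move a median, so that likeness shows little.

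The other 16 measured Pol models lay on both sides of equality. Model 201 on chromosome 9 held 25 counts in control and 69 in mrWNT2 and was 2.90-fold higher (interval 1.81 to 4.79). Model 57, a Gag-Pol model with an RnaseH label at chr13:67885077-67889260, held 591 and 997 counts and was 1.77-fold higher (1.60 to 1.97). Model 146 held 65 and 96 counts and model 178 held 28 and 44, with both intervals above 1. Models 158 (13 to 21 counts), 19 (39 to 52), 39 (15 to 17), 77 (133 to 137) and 85 (793 to 806) had intervals that include a ratio of 1.

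On the lower side, model 177 held 426 counts in control and 172 in mrWNT2 and was 2.36-fold lower (1.97 to 2.83). It lies at chr6:41196264-41202109, 441 bases from the T cell receptor segment Trbv21. Model 6 held 561 and 243 counts and was 2.20-fold lower (1.89 to 2.56). It is an unspliced Gag-Pol model of 8577 bases with a Gag_p30 label (Gag_p30 is the capsid part of Gag) at chr1:170941531-170950107, 8510 bases from Fcgr2b, the inhibitory Fc receptor gene, which had a log2 ratio of -0.50. Model 165 held 31 and 14 counts (2.11-fold lower, 1.09 to 4.28).

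Model 125, the Pol model with the most counts in control, held 1312 and 845 and was 1.48-fold lower (1.35 to 1.61). Models 49 (192 to 121 counts) and 89 (91 to 56) were lower with intervals below 1, and model 218 on the Y chromosome (69 to 48) had an interval that includes 1. Over the 17 measured Pol models the median log2 ratio was 0.12, and 2 were past 2-fold higher and 3 lower. The shares over all measured genes were 3.38% higher and 2.49% lower, and 17 models are few for a share. Of the 6 Pol models below 1 CPM, model 156 held 18 and 5 counts, model 52 held 0 and 9, model 94 held 2 and 2, and models 37, 42 and 105 were at 0 in both libraries. The 2 Gag models held little: model 166 had 40 and 33 counts (1.15-fold lower, 0.709 to 1.89), and the other did not reach 1 CPM.

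The envelope models held some of the highest levels per length, and none of the 8 was past 2-fold. By that margin 3.38% of all measured genes were higher and 2.49% lower. Model 81 was the only one of them that was higher. It held 1843 counts in control against 3263 in mrWNT2 and was 1.86-fold higher (1.76 to 1.97), and its FPKM was 47.0 and 85.5. It lies at chr17:34996689-35000353 on the minus strand, overlapping RefSeq's D17H6S56E-5, whose RefSeq start is printed above, 634 bases from Vars, a valyl-tRNA synthetase gene with a log2 ratio of 0.34.

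The other 7 envelope models were lower, 6 of them with intervals below 1. Model 97 held 2439 and 1405 counts (1.65-fold lower, 1.55 to 1.76), with an FPKM of 68.2 in control and 40.4 in mrWNT2. Model 2, spliced over chr1:10260342-10324659, held 3022 and 1992 counts, the most of any model in control, and was 1.44-fold lower (1.36 to 1.53). Model 11, matched to the Env protein of murine leukaemia virus-related proviruses, held 821 and 533 counts (1.46-fold lower, 1.31 to 1.64). Model 217 on the X chromosome held 572 and 299 counts (1.82-fold lower, 1.58 to 2.10), model 114 held 108 and 61, and model 15 held 278 and 214. Model 190 held 22 and 16 counts, and its interval included 1. The median log2 ratio of the 8 was -0.54.

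**Figure D3:**
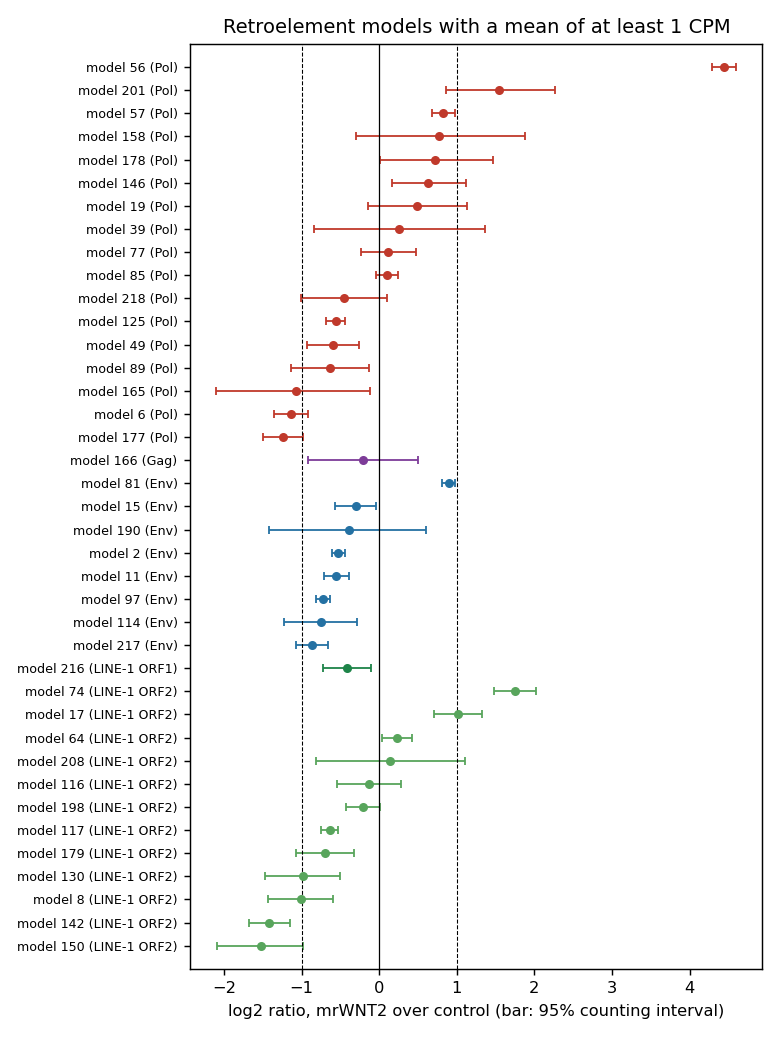
Log2 ratio of mrWNT2 over control for the 39 measured retroelement models, grouped by matched protein, with 95% counting intervals as bars and dashed lines at 2-fold. Model 56 stands apart at 4.44, the Pol models lie on both sides of 0, and 7 of the 8 envelope models lie left of 0.

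The LINE-1 models showed differences in both directions as well. Of the 12 ORF2 models, all measured, 2 passed 2-fold higher and 3 passed 2-fold lower, with a median log2 ratio of -0.43. Over all measured genes 3.38% were higher and 2.49% lower by that margin, and 12 models are few for a share. Model 74, spliced over chr16:20047796-20060185 on the plus strand, held 153 counts in control and 489 in mrWNT2 and was 3.36-fold higher (2.80 to 4.06). Its nearest gene, Klhl24, lay 37357 bases away with a log2 ratio of -0.18. Model 17, which overlaps RefSeq's Gm46162, held 132 and 253 counts (2.02-fold higher, 1.63 to 2.51), and was not past 2-fold with DESeq2 size factors.

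The 3 ORF2 models past 2-fold lower were models 150, 142 and 8. Model 150 held 115 and 38 counts (2.88-fold lower, 1.98 to 4.27). Model 142 held 457 and 163 counts (2.67-fold lower, 2.22 to 3.21) at chr4:144960344-144967824, 4798 bases from Vps13d, a lipid transfer protein gene that had a log2 ratio of -0.08. Model 8 held 152 and 72 counts (2.01-fold lower, 1.51 to 2.70) and was not past 2-fold with scaling by total counts. The annotated gene Gm10521, 623 bases from model 8 on the same strand, had a log2 ratio of -0.83. Model 117, the LINE-1 model with the most counts, held 1825 and 1114 (1.56-fold lower, 1.45 to 1.68), with an FPKM of 50.6 and 31.7.

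Among the remaining ORF2 models, models 130 (116 to 56 counts) and 179 (160 to 94) were lower and model 64 (441 to 491) was higher with intervals that exclude 1. Models 198 (390 to 320), 116 (107 to 93) and 208 (20 to 21) had intervals that include 1. The ORF1 model, model 216 on the X chromosome, held 210 and 150 counts and was 1.33-fold lower (1.07 to 1.65). It lies 36 bases from Zrsr2, a splicing factor gene, on the opposite strand, whose log2 ratio was 0.01.

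Levels can be compared between models only per length. Of the 43 models with at least 10 CPM, 21 were retroelement models, and the highest FPKM of the 43 in control was that of model 97 (68.2), followed by models 117 (50.6), 81 (47.0) and 217 (38.2). In the mrWNT2 library model 56 came first (117), followed by model 81 (85.5), model 97 (40.4) and model 117 (31.7). With 1 library a group, the spread of these levels between cultures is unknown, so neighbours in this order cannot be told apart beyond counting error.

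**Figure D4:**
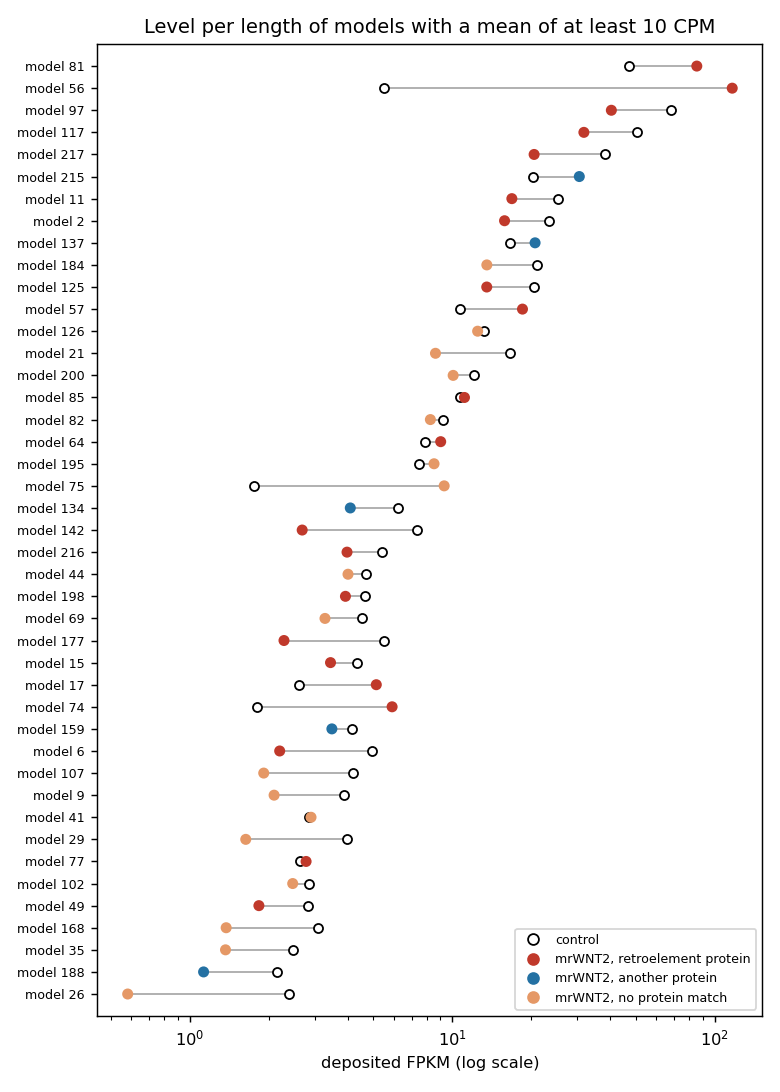
Deposited FPKM on a log axis of the 43 models with a mean of at least 10 CPM, with control as open circles and mrWNT2 as filled circles coloured by class. Most filled circles lie left of their open partner; models 56, 75 and 74 show the longest shifts to the right, and model 26 the longest to the left.

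Models matched to other proteins differed by less than 2-fold. Model 137, matched to TLC domain-containing protein 2, held 565 and 684 counts (1.27-fold higher, 1.14 to 1.43). Model 215, matched to the ubiquitin-ribosomal protein S27a fusion on an unplaced scaffold, held 118 and 173 counts (1.54-fold higher, 1.21 to 1.97). Model 188, matched to T cell-interacting, activating receptor on myeloid cells protein 1, held 345 and 176 counts (1.86-fold lower, 1.55 to 2.25). The gene of that name, Tarm1, lies 1252 bases away on the same strand and had a log2 ratio of -0.59. Model 134, matched to Formin-1, held 164 and 105 counts, and model 159, with a KRAB label, 148 and 121.

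Among models with no protein match, the largest difference at a high level was that of model 75. It is an unspliced model of 18056 bases at chr16:93124230-93142285 on the minus strand, where RefSeq places the long non-coding RNA Gm30474. It held 418 counts in control and 2165 in mrWNT2 and was 5.45-fold higher (4.90 to 6.06). The nearest measured gene was Runx1, a transcription factor gene of blood cell development, 298081 bases away with a log2 ratio of 0.21.

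The other higher models of this class held few counts. Model 145 held 5 counts in control and 23 in mrWNT2 (4.84-fold higher, 1.8 to 16.3), and model 204 held 9 and 34 (3.97-fold higher, 1.87 to 9.42). Models 175 (15 to 35), 99 (11 to 25), 163 (15 to 32), 173 (25 to 52), 167 (18 to 36) and 62 (19 to 37) were 2.05 to 2.45-fold higher, and model 38 (19 to 34) 1.88-fold. All of these intervals excluded 1, but the lower bounds of all except model 145 and model 204 lay under 1.5.

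Lower models of this class reached larger counts. Model 26, spliced over chr10:67689634-67698797, held 241 counts in control and 57 in mrWNT2 and was 4.02-fold lower (3.00 to 5.47). Its neighbour Gm47574, 9041 bases away, held 10 and 2 counts. Model 124 held 51 and 8 counts (6.06-fold lower, 2.86 to 14.8), model 149 held 29 and 5 (5.52-fold, 2.11 to 18.2) and model 109 held 32 and 6 (5.07-fold, 2.09 to 14.8). Model 90 held 112 and 26 counts and was 4.10-fold lower (2.65 to 6.54). Models 185 (35 to 11), 147 (123 to 41), 61 (127 to 44), 193 (94 to 33) and 103 (53 to 19) were 2.65 to 3.03-fold lower.

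At 10 CPM or more, models 29 (192 to 77), 168 (188 to 82) and 107 (303 to 135) were 2.37, 2.18 and 2.13-fold lower. The start of model 107 is shown with RefSeq's 9830166K06Rik. Models 21 (509 to 258), 9 (242 to 128), 35 (243 to 131), 184 (206 to 129) and 69 (205 to 144) were lower by under 2-fold with intervals below 1. Models 126 (1018 to 939), 82 (360 to 315), 102 (299 to 252), 195 (243 to 269), 200 (249 to 202), 41 (185 to 183) and 44 (190 to 158) had intervals that include 1.

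Most models lay close to an annotated gene. The nearest annotated gene was within 5 kb of 114 models and 5 to 50 kb from 93. It was farther for 10 models, 1 model (model 12, in Mia3) overlapped an annotated gene, and 1 lay on a scaffold with no annotated gene. For 28 models the gap was at most 100 bases. The strand setting of the counting was not given in the sources used here. Reads from genes that touch or overlap a model can therefore not be assigned with certainty.

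Of the 65 measured models with a measured gene within 5 kb or overlapping, 16 were past 2-fold. The neighbour was past 2-fold in the same direction in 3 of these 16 (models 62, 109 and 204), past it in the opposite direction in 0, and within 1.5-fold in 11. Across the 65 pairs the log2 ratios of model and neighbour correlated with Pearson's r = 0.49 and Spearman's rho = 0.39, and 43 pairs had the same sign. Pairs share both libraries and their scaling, and some neighbours serve several models, so this is a description only. With the nearest measured gene 5 to 50 kb away (62 models) r was 0.21, and beyond 50 kb (28 models) it was 0.22.

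Model 204 and its neighbours gave the clearest shared difference. D030055H07Rik, 500 bases away on the same strand, held 134 and 524 counts and was 4.11-fold higher, against 3.97-fold for the model. Glyctk, the glycerate kinase gene 4670 bases away, held 74 and 231 counts (log2 ratio 1.71). RefSeq places the start of D030055H07Rik inside model 204, at the start printed above. Model 204 and D030055H07Rik may therefore be parts of 1 gene, and their like ratios are not those of independent neighbours. This pair is among the same-direction pairs and in the correlation given above. In all, 7 models overlapped on the same strand a RefSeq gene whose name also stands on a row of its own in the deposited table.

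Next to model 62, the zinc transporter gene Slc39a2 held 119 and 277 counts, a 2.45-fold difference against 2.05-fold for the model; the same gene lay 15198 bases from model 61, which was 2.74-fold lower. Next to model 109, the membrane protein gene Ms4a4a held 1131 and 520 counts (2.07-fold lower against 5.07-fold). Other models past 2-fold lay beside genes that hardly differed: Med26, 248 bases from model 193, had a log2 ratio of -0.05, and Gab2, an adaptor gene 6 bases from model 185, one of -0.15. Actb, the cytoplasmic actin gene 107 bases from model 173, had a ratio of -0.14.

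The opposite pattern occurred beside the chemokine gene Ccl3. Model 35, 1005 bases from it on the opposite strand, held 243 and 131 counts (1.76-fold lower, 1.42 to 2.20), while Ccl3 held 1489 and 3150 counts and was 2.22-fold higher. Slamf6, a lymphocyte surface receptor gene 9377 bases from the lower model 8, held 33 and 108 counts (log2 ratio 1.78). Fcrlb, 28590 bases from the lower model 6, held 25 and 76 (1.68). Rab3il1, 44368 bases from the higher model 99, was lower (-1.11). Other genes past 2-fold at such distances went the same way as their model. Best1, 27873 bases from the higher model 99, had a log2 ratio of 2.16. Gm7879, 47889 bases from the higher model 167, had one of 1.44. Axl, 46229 bases from the lower model 183, had one of -1.05.

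**Figure D5:**
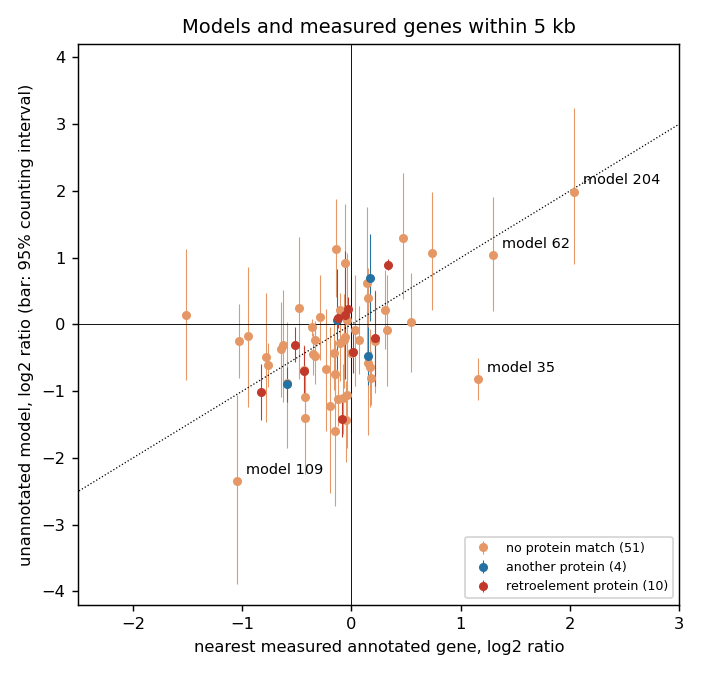
Log2 ratio of each of 65 measured models (y, with 95% counting interval) against that of its nearest measured annotated gene within 5 kb or overlapping (x), coloured by class; the dotted line marks equal ratios. Models 204 and 62 lie in the upper right and model 109 in the lower left, while model 35 lies lower beside a higher gene (Ccl3).

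Models also lay near each other: 55 had another within 50 kb, in 25 chains. On chromosome 4 (34482030 to 34496330), models 148, 149 and 150 lay in a row and all were lower, with 173 counts in control and 59 in mrWNT2 in sum (2.79-fold lower). On chromosome 14, models 61 and 62 lay near each other on the same strand and differed in opposite directions, with log2 ratios of -1.46 and 1.03. On chromosome 7, all 11 measured models lay lower at some size, 2 of them past 2-fold. This chromosome was picked with its values known, and 66.9% of all measured models lay lower. On chromosome 1, 12 of 15 measured models did, and on chromosome 13, 3 of 7. Models 37 and 42 covered the same 5455 bases of chromosome 11 on opposite strands and both were at 0. All 6 models with no count lay within 50 kb of another model. How reads on a shared span were assigned was not given, so a count of 0 there need not mean that no transcript was made.

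Annotated genes derived from retroelements were set beside the models, from a list of 31 symbols of which 26 were in the table and 9 measured. At 1.5-fold, 4 of the 9 were higher and 0 lower, with a median log2 ratio of 0.31, against 7.62% higher and 7.02% lower over all measured genes. Erv3, an endogenous retroviral gene on chromosome 2, held 91 counts in control and 1629 in mrWNT2 and was 18.8-fold higher (15.2 to 23.5), near the ratio of model 56. Rtl8b held 18 and 60 counts (3.51-fold higher, 2.04 to 6.31), Rtl5 held 75 and 149 (2.09-fold, 1.57 to 2.80), and Rtl8a, whose interval included 1, held 11 and 17; these are domesticated Gag genes. Asprv1, a retroviral-like aspartic protease gene, held 6062 and 4727 counts, Gin1 137 and 104, Fv1 39 and 43, Rtl6 22 and 26, and Peg10 22 and 14. Synb, a syncytin gene, was at 0 in both libraries.

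Of 31 listed genes of retroelement silencing, 30 were measured, 0 passed 1.5-fold higher and 2 passed it lower, with a median log2 ratio of 0.08. The lower count lies near the 7.02% of all measured genes. Zfp809, a KRAB zinc finger protein known to silence proviral DNA, held 260 and 153 counts (1.62-fold lower, 1.32 to 1.99). Resf1, which takes part in SETDB1-dependent silencing, held 1856 and 1154 (1.53-fold lower, 1.42 to 1.65).

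Of 20 measured genes of retroviral restriction and entry, 2 passed 1.5-fold higher and 1 passed it lower, with a median of -0.01, near the 7.62% higher and 7.02% lower of all measured genes. Bst2, the tetherin gene that holds virions at the cell surface, held 131 and 238 counts (1.91-fold higher, 1.54 to 2.38), and Rnaseh2a, a subunit of the nuclease that removes RNA from DNA hybrids, held 146 and 213 (1.53-fold, 1.24 to 1.91). Mov10, a helicase gene that limits LINE-1, held 233 and 143 (1.55-fold lower, 1.25 to 1.92). Of 12 nucleic acid sensing genes, all measured, 2 were higher and 1 lower at 1.5-fold, with a median of 0.09; against the same all-gene shares, about 1 each way would be, so these few counts show nothing particular to the list. Tlr9, the endosomal DNA receptor, held 30 and 83 counts (2.91-fold higher, 1.90 to 4.58), Tlr3, the double-stranded RNA receptor, 20 and 39 (2.05-fold, 1.17 to 3.71), and the interferon-inducible Ifi204 686 and 422 (1.55-fold lower, 1.37 to 1.75).

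The labelled cell type was checked against its markers. All 11 listed genes of MDSCs and immature myeloid cells were measured, with a summed level of 45835 CPM in control and 38784 in mrWNT2, most of it from S100a8 and S100a9. Members differed in opposite directions: Csf1r, the receptor of a macrophage growth factor, held 1954 and 4405 counts, and Ly6g, a granulocytic surface marker, held 2315 and 1098. All 5 macrophage markers were measured and summed to 2285 CPM in control and 1299 in mrWNT2, with 4 of them at least 1.5-fold lower and Adgre1 at least 1.5-fold higher. None of the dendritic, T and NK or erythroid markers reached a mean of 1 CPM over the 2 libraries, with Siglech and Ncr1 at 0 in both libraries. Of 3 B cell markers, only Cd79a was measured. Mast cell and basophil markers summed to 102 and 87.2 CPM, and stromal and endothelial ones to 59.2 and 53.9 CPM, with Col1a1 and Col1a2 at least 1.5-fold lower. The part of these shifts in the ratios of the models was not tested.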

How the data were processed

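RNA-seq was done on 1 control and 1 mrWNT2 library. Per the labels' protocols, total RNA was isolated with TRIzol and made into libraries with a NEBNext Ultra kit. Tools named in the submitters' processing notes are fastp, HISAT2 2.0.5, CASAVA 1.8, DESeq2 1.20.0 and featureCounts 1.5.0-p3, with GRCm38 (mm10) as the build. The authors deposited raw counts per gene, and FPKM values in which they scaled fragments by gene length and depth. The assembler of the unannotated models, the strand setting and the handling of reads that map to several places were not given in the sources used here. Reads of near-identical repeat copies may be split among models or left out, and each retroelement model's count is uncertain in that way.

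TMM factors from edgeR 4.0.16 under R 4.3.3 (0.992 for control, 1.01 for mrWNT2) scaled the counts. Exact 95% Clopper-Pearson intervals came from SciPy 1.17.1. Reads carry no molecular identifiers, so the intervals and the floor for 0 counts (3 counts, or 0.224 and 0.236 CPM) cover counting error only. A count model needs replicates, so none was run. Gene lists and members were chosen with earlier results of these data known. Models named were all with a mean of at least 10 CPM, all measured retroelement models, the 10 highest and 10 lowest ratios among other measured models whose interval excludes 1, their nearest genes, list genes past 1.5-fold, and Erv3. Further genes and models were picked as examples with their values known. The models' coordinates are those of the deposited table, and 99.9% of 20848 protein-coding symbols shared with RefSeq's GRCm38.p6 lay at overlapping places. No genome sequence was used, so the sequences of the models themselves were not analysed here, and motifs were searched in RefSeq promoters only.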

Additional observations from a re-analysis of the deposited data

How the results depend on the processing

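No paired analysis was possible because each group had 1 library, and for the same reason no library could be left out. Scaling by DESeq2 size factors or by total counts, a pseudocount of 0.5, the deposited FPKM, a wider definition of retroelement proteins, and leaving out models that overlap an annotated gene were tried. After the data were seen, leaving out model 56 or the 13 models that overlap another model was added. Of 62 alternative values of the 7 main counts, medians and sums, 53 stayed within a set tolerance of the reported value. The tolerance was a factor of 1.5 for counts, 0.1 for median log2 ratios and the counting interval for the sum. It is wide for small counts: 6 higher retroelement models with no CPM minimum, against 4, stayed within it. Several of the 53 could not differ: the wider definition took the same 46 models, and the deposited FPKM gave the same ratios as DESeq2 size factors. The summed log2 ratio of the retroelement models was 0.32 with DESeq2 size factors and 0.32 with the deposited FPKM, and -0.18 without model 56. It was also -0.18 without models that overlap another model, which leaves model 56 out too. With no CPM minimum, 27 models were at least 2-fold higher and 42 lower of 209 with a ratio. No all-gene share was taken at that setting, so those counts have no background and show no excess. Above a mean of 10 CPM 4 passed 2-fold higher and 7 lower, 3 of the lower ones retroelement models. Of all genes of that level 1.8% were higher and 0.714% lower. Fewer or more models entered the counts under both settings by construction. Scalings moved every ratio of the 79 models named by the rule alike, so their directions were not put to a test. DESeq2 size factors shifted ratios by -0.03, which took model 17 under the 2-fold line and model 130 over it. Total counts shifted them by 0.02, which took model 8 under it and left 5 retroelement models past 2-fold lower. With 1 library per group, the difference between cultures treated alike is unknown, and models with few counts are limited by depth.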
